A study of Mus musculus with 6 samples.

Results

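The genes described here encode the enzymes that write, copy and remove DNA methylation, together with the proteins that bring the copying enzyme to replicated chromatin. They were taken as the rows of the gene count table named Dnmt1, Dnmt3a, Dnmt3b, Uhrf1, Uhrf2, Cdca7, Hells, Tet1, Tet2 and Tet3, a list drawn up by function with earlier results of these data known. All 10 were found among the 24499 genes of the table, and all 10 were among the 13296 genes with enough counts to be tested. RNA sequencing compared day 3 induced germinal center B cells (iGCBs) depleted of eIF3e, a subunit of a translation initiation complex, with control iGCBs. The question addressed was which transcripts differ when B cells lose this subunit during the response.

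The knockout (cKO) cells carried floxed Eif3e alleles (Eif3e fl/fl) with Cγ1 Cre and the Rosa26-YFP LSL reporter on the C57BL/6J background. Cre is driven from the Ig γ1 constant region locus and so acts only in B cells that have begun to transcribe it, and YFP marks cells in which Cre has acted. The labels of the other group say only control; the study used Cγ1 Cre Rosa26-YFP LSL mice as its control, and the sort for YFP+ cells requires both alleles. In each group, naive splenic B cells of 3 individual mice, whose age was not given in the sources used here, were cultured on 40LB cells, irradiated (120 Gy) fibroblast feeders that express CD40L and BAFF, with 1 ng/ml IL-4, and YFP+ cells were sorted. Sample names give day 3, whereas the growth text of the labels gives 4 days.

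Methylation of cytosine in CpG pairs is set by the de novo enzymes Dnmt3a and Dnmt3b and copied onto the new strand after each round of replication by Dnmt1, which Uhrf1 recruits to CpG methylated on one strand only. The remodeling ATPase Hells and its zinc finger partner Cdca7 open nucleosomal DNA for this step. Tet1, Tet2 and Tet3 oxidize methylcytosine, after which the mark is lost by dilution or by base excision. In B cells, methylation is remodeled as naive cells become germinal center and plasma cells, and TET enzymes take part in that transition.

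The 6 libraries held 39079582 to 45504570 estimated counts, so that 3 counts, the level below which a gene was read as not detected, corresponded to 0.0661 to 0.0763 CPM (counts per 1000000). Eif3e itself stood at 173, 149.8 and 152 CPM in the 3 cKO libraries and 424, 401 and 392 CPM in the 3 control libraries, a log2 fold change of -1.36. Correlations across genes were 0.990 to 0.993 within groups and 0.970 to 0.977 between them. Summed B cell markers overlapped between groups (4884 to 5078 CPM in cKO, 4694 to 5044 CPM in control), although 4 of the 8 genes rose, among them Pax5 by 0.49 and Ebf1 by 0.47, and 3 fell, among them Cd79a by 0.37. Germinal center-like markers were lower in cKO (269 to 278 against 355 to 427 CPM; 4 of 6 genes fell and Fas rose by 0.41), and plasma cell markers too (646 to 788 against 831 to 852 CPM). Of the 5 plasma cell markers, Jchain fell by 4.00 on the log2 scale, Prdm1 by 1.13 and Xbp1 by 1.10, while Sdc1 rose from a mean of 4.70 to 14.2 CPM and Irf4, which made up most of the sum in cKO, rose by 0.42. Fibroblast markers summed to 104 to 129 CPM in cKO and 80.2 to 150.2 CPM in control, with 9 of 12 genes tested, Fn1 alone passing the test, at 1.07, and Lum and Postn at 0. Myeloid markers summed to 4.08 to 6.06 against 1.22 to 2.45 CPM, with Adgre1 rising by 1.96 and S100a8, S100a9 and Cd14 at 0, and of the T cell markers Lck, the one with enough counts to be tested, fell by 0.64 and Cd3e was at 0. The part of these markers in the results below was not tested. In bulk RNA, a change in the share of cells that express a gene and a change in RNA per cell cannot be told apart.

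Of the 10 genes, 6 were higher in cKO iGCBs, 1 was lower and 3 did not pass the test (edgeR, adjusted p under 0.05, called passing below). Over all genes tested, 48.6% passed, 24.1% as higher and 24.5% as lower. Hells, Dnmt3a and Tet1 also changed by more than 1.5-fold, all upward, a size reached by 21.0% of all genes tested, 10.4% upward and 10.6% downward. The median log2 fold change of the 10 genes was 0.34, and that of all genes tested was -0.004. In 9 of the 10 genes the 3 cKO libraries did not overlap the 3 control libraries, a separation also seen in 58.7% of all genes tested, Dnmt1 being the exception.

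**Figure D1:**
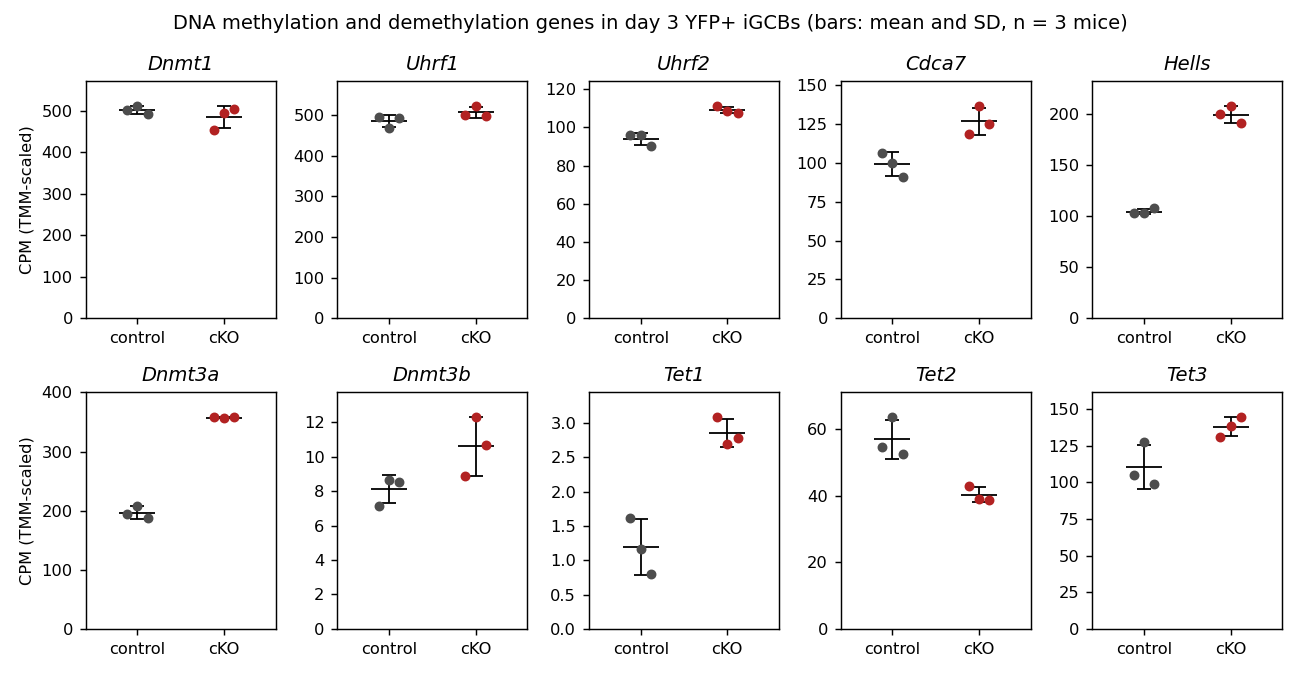
Each panel plots 1 gene's CPM (vertical axis, from 0) in the 3 control (grey) and 3 cKO (red) libraries, with the mean and SD in black. Hells and Dnmt3a separate most widely relative to their spread, Tet2 is the gene that is lower in cKO, and Dnmt1 overlaps.

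The maintenance group was described first by its control regions, because these genes are usually transcribed with the replication program. The words bound by E2F factors, TTTCCCGC, TTTCGCGC, TTTGCCGC and TTTGGCGC, were searched on both strands in the RefSeq promoters (GRCm38.p6) from 250 bases before to 50 bases after each start site. They occurred in 744 of 32851 promoters, or 2.27%, and in 4 of the 15 promoters of the 10 genes, 1 each for Dnmt1, Uhrf1, Cdca7 and Hells. The 30 bases around each word are printed on the strand of the gene, with the word in capitals, so that the genes that share it can be set beside their values.
Dnmt1, chr9:20952824-20952853, minus strand: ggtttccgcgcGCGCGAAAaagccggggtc
Uhrf1, chr17:56304117-56304146, plus strand: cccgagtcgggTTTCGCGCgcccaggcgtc
Cdca7, chr2:72476137-72476166, plus strand: tgcgtcccggcGCGGGAAAgccggtggccc
Hells, chr19:38930917-38930946, plus strand: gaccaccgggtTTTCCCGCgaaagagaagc

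The word lay 71 bases before the RefSeq start site in Cdca7, 62 in Hells, 185 in Uhrf1 and 219 in Dnmt1, whose promoter held a further such word after the start site. In Dnmt1, Uhrf1 and Hells this start site was 356, 992 and 75 bases downstream of the start of the transcript with most counts, and against that start the word lay downstream in all 3 and upstream in Cdca7. Of the 100 bases around the word, 100 were annotated as exon in Dnmt1, 67 in Hells, 43 in Cdca7 and 0 in Uhrf1. The NF-Y word CCAAT, found in 37.4% of all promoters, was present in promoters of Dnmt1, Uhrf1 and Tet3, and the E-box CACGTG, found in 7.15%, only at the start site of the short form of Dnmt3a. The promoters of the 10 genes held between 2 and 57 CpG pairs in 300 bases, against a median of 7 over all promoters. For Tet1, the start site searched lay 11794 bases downstream of the start of its counted transcript. That start lies outside the Tet1 gene span given below, and its promoter was not searched.

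Dnmt1 (chr9:20907206-20959888) and Uhrf1 (chr17:56303337-56323486) were the most abundant genes of the group and moved little. Dnmt1 was at 455, 496 and 505 CPM in cKO and at 501, 510.3 and 492 CPM in control libraries. The groups overlapped, and the log2 fold change was -0.05 (SE 0.0527, 95% interval -0.16 to 0.07, adjusted p = 0.497). Uhrf1 was at 500.1, 521 and 498 CPM in cKO and at 495, 468 and 494 CPM in control libraries. All 3 cKO values were above the control values, but the nearest libraries of the groups nearly met, and the difference of 0.06 did not pass (SE 0.0476, 95% interval -0.04 to 0.17, adjusted p = 0.319). Both intervals ended well inside 1.5-fold.

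Hells (chr19:38930262-38970470), the remodeling ATPase, rose by 0.93 on the log2 scale, or 1.91-fold. It was at 200.2, 208 and 191 CPM in the 3 cKO libraries and at 103, 103 and 108 CPM in the controls. The lowest cKO library stood far above the highest control, and the change was many times its error (SE 0.0527, adjusted p = 1.47e-06). Cdca7 (chr2:72476187-72486892), which recruits Hells to chromatin, was at 119, 136 and 125 CPM in cKO and at 106, 100.2 and 90.9 CPM in control libraries. Cdca7 was thus also higher in every cKO library, but by 0.35 (SE 0.0731, adjusted p = 0.00252). Uhrf2 (chr19:30030430-30093726), the paralogue of Uhrf1 that binds hydroxymethylated DNA, was at 111, 109 and 108 CPM in cKO and at 95.8, 95.7 and 90.4 CPM in control libraries. The increase of 0.22 was the smallest of the group that passed (SE 0.0516, adjusted p = 0.00591). Among the 5 maintenance genes, 3 thus rose and 2, Dnmt1 and Uhrf1, did not pass.

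The replication genes were set beside these values. Of 34 tested, 10 rose and 5 fell, where 24.1% of all genes tested rose and 24.5% fell. The median log2 fold change of the list was 0.03. Without cKO replicate 2, the number of the list that rose was 6. The mean log2 CPM of the replication genes was 7.04, 7.11 and 7.02 in cKO and 7.06, 6.97 and 7.07 in control libraries, and the groups overlapped. These RNA values do not measure cycling, and in this culture the study reported impaired proliferation and more death of cKO cells. The largest decreases were those of Cdt1, the licensing factor that loads the MCM helicase, at -0.86, Rfc2 at -0.48 and Rfc5 at -0.33, both subunits of the clamp loader. The largest increases were those of the clamp loader subunit Rfc4 at 0.39, Gins4 of the replicative helicase at 0.35 and Chaf1a, which deposits histones behind the fork, at 0.34. Cdt1 was the gene of this list that changed by more than 1.5-fold, and no increase in the list reached the size seen in Hells.

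Dnmt3a (chr12:3801559-3914443) was the de novo enzyme that changed. It was at 358, 356 and 358 CPM in the cKO libraries and at 194, 209 and 187 CPM in the controls. The increase was 0.86 on the log2 scale, or 1.82-fold (SE 0.0527, adjusted p = 1.92e-06), with a cKO mean of 357 ± 0.915 CPM and a control mean of 197 ± 11.1 CPM (SD, n = 3). Dnmt3b (chr2:153649411-153687730) was far less abundant, at 8.88, 12.3 and 10.7 CPM in cKO and at 7.16, 8.65 and 8.50 CPM in control libraries. The lowest cKO library was only just above the highest control, and the difference of 0.39 did not pass (SE 0.151, 95% interval 0.05 to 0.73, adjusted p = 0.0557). Dnmt3b did pass with a replicate block (0.38, adjusted p = 0.0390) and without cKO replicate 1 (0.50, adjusted p = 0.0240). An antisense gene overlaps the locus of each enzyme without sharing exon bases with its most counted transcript, and whether counting used strand was not stated. Dnmt3a also has a processed pseudogene, Dnmt3a-ps1, which was not a row of the count table and could share reads with it.

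**Figure D2:**
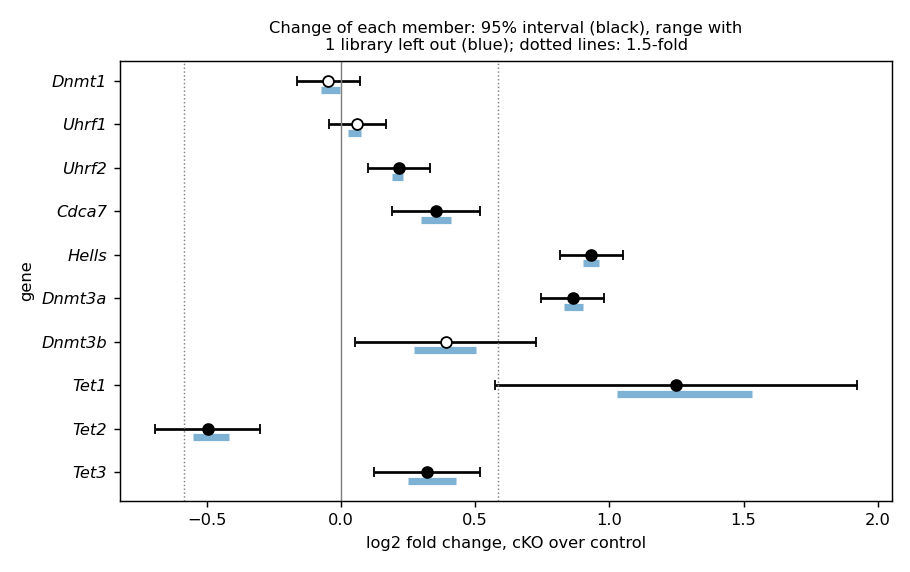
The log2 fold change of each gene (horizontal axis, cKO over control) is shown with its 95% interval in black, the range with 1 library left out in blue, filled points for an adjusted p under 0.05 and dotted lines at 1.5-fold. Hells and Dnmt3a lie wholly past 1.5-fold, Tet1 has the widest interval, and Dnmt1, Uhrf1 and Dnmt3b are open points.

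The 3 oxidizing enzymes did not move together. Tet2 (chr3:133463677-133545136) was at 42.9, 39.1 and 38.8 CPM in cKO and at 54.6, 63.6 and 52.5 CPM in control libraries. It fell by 0.50 on the log2 scale (SE 0.0880, adjusted p = 0.00101) and was lower in every cKO library. Tet3 (chr6:83362373-83457208), the most abundant of the 3, was at 131, 139 and 145 CPM in cKO and at 105, 128 and 99.0 CPM in control libraries. Its increase of 0.32 passed (SE 0.0888, adjusted p = 0.0126) and did so narrowly, with the highest control library just below the lowest cKO library. Tet1 (chr10:62804570-62887469) had the fewest counts of the 10 genes, with 140, 121 and 118 counts in cKO and 73, 46 and 33 counts in control libraries, or 3.09, 2.69 and 2.78 against 1.62, 1.17 and 0.801 CPM. The control libraries thus spread widely, all below the cKO values, and the increase of 1.25 carried the largest error of the 10 genes (SE 0.304, 95% interval 0.57 to 1.92, adjusted p = 0.00649).

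Among genes with a mean of at least 10 CPM, those whose profile over the 6 libraries was most like that of Tet1 were Rap2a, Ass1 and Adgrg1. The root mean square difference of log2 CPM, centred on the control mean, was 0.178 for Rap2a, 0.195 for Ass1 and 0.222 for Adgrg1, over 8500 genes compared. Tet1 itself was below 10 CPM, with 33 to 140 counts a library, so its profile carries counting error. Some genes are always nearest, and whether these are nearer than others would be was not tested. No gene of the 10 fell by more than 1.5-fold, so no such search was made for a decrease.

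The 3 cKO libraries came from 1 mouse with Xist counts and 2 with counts of Y chromosome genes, and the control libraries from 2 and 1. Within the Xist libraries and within the Y libraries, the direction of each of the 10 differences was that of the whole comparison, with no test made. The log2 difference of Tet1 was 0.97 and 1.87, and that of Dnmt3b 0.64 and 0.19, in the Xist and Y libraries respectively. For Hells the values were 1.01 and 0.86, and for Dnmt3a 0.82 and 0.94.

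Levels of different genes were compared per kilobase of the transcript with most counts. For Dnmt3b this was NM_001271747, which had 0 counts in control replicates 1 and 2, so its value per kilobase is approximate. In control iGCBs the order of level was Uhrf1 (135 CPM per kb), Dnmt1 (93.4), Cdca7 (40.9), Uhrf2 (26.6), Dnmt3a (20.3), Hells (17.8), Tet3 (10.1), Tet2 (6.19), Dnmt3b (2.05) and Tet1 (0.0833). In cKO iGCBs, Dnmt3a (36.9 CPM per kb) and Hells (34.0) stood above Uhrf2 (30.9), and the order was otherwise that of the controls. Neighbors in either order had values that did not overlap over the 3 libraries of a group. Uhrf1 and Dnmt1 were thus the most abundant in both groups.

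Ratios of 2 genes in the same library do not depend on scaling between libraries. With 3 against 3 libraries the exact permutation test cannot give a two-sided p under 0.1, so none of the 6 ratios compared could reach 0.05. The Cdca7/Hells ratio was 0.595, 0.656 and 0.653 in cKO and 1.03, 0.970 and 0.843 in control libraries, a log2 difference of -0.58 (exact p = 0.1, adjusted p = 0.15). The groups did not overlap, since Hells rose by more than its partner. The Tet2/Tet3 ratio was 0.327, 0.282 and 0.268 in cKO and 0.520, 0.497 and 0.530 in control libraries, a log2 difference of -0.82 (exact p = 0.1, adjusted p = 0.15).

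The ratio of the de novo enzymes, Dnmt3a/Dnmt3b, was 40.3, 29.0 and 33.6 in cKO against 27.1, 24.1 and 22.0 in control, a difference of 0.48 (exact p = 0.1, adjusted p = 0.15). The Uhrf1/Uhrf2 ratio also did not overlap between groups, with a difference of -0.15 (exact p = 0.1, adjusted p = 0.15). Uhrf1/Dnmt1 and Dnmt1/Pcna overlapped between groups, with differences of 0.11 (exact p = 0.3, adjusted p = 0.36) and -0.02 (exact p = 0.9, adjusted p = 0.9). Pcna encodes the replication clamp to which Dnmt1 binds.

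**Figure D3:**
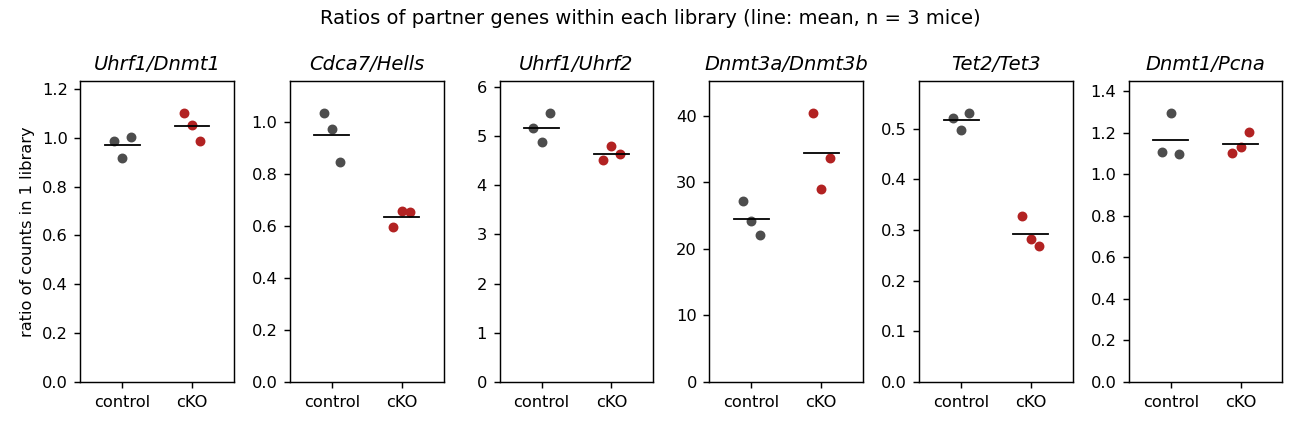
Each panel plots the ratio of the counts of 2 genes in 1 library (vertical axis, from 0) for 3 control (grey) and 3 cKO (red) libraries, with the mean as a line. Cdca7/Hells and Tet2/Tet3 are lower and Dnmt3a/Dnmt3b higher in every cKO library, while Uhrf1/Dnmt1 and Dnmt1/Pcna overlap.

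Of the 10 genes, 4 had more than 1 transcript in the table, and 1 of these, Dnmt1, passed the test for a change in transcript use (adjusted p = 0.0180), a test passed by 3.28% of the 2990 genes with 2 or more tested transcripts. On simulated data this test made more false calls than its threshold allows, so its adjusted p-values may be too small. The transcript NM_001314011 carried 0.431%, 0.516% and 0.243% of the Dnmt1 counts in cKO and 14.5%, 1.32% and 1.89% in control libraries. The group difference rested on control replicate 1, with 3273 counts against 265 and 383 in the other controls. Without control replicate 1 the change in use of this transcript was -1.40 (adjusted p = 0.800) in place of -2.70 (adjusted p = 0.0237). It also did not pass without cKO replicate 1 (adjusted p = 0.0980), 2 (0.107) or 3 (0.179), with a replicate block (0.298) or with a term for sex (0.246). The 2 major transcripts, NM_001199431 and NM_010066, carried 63.3% ± 5.36 and 35.9% ± 5.01 in cKO and 45.9% ± 11.4 and 47.1% ± 5.19 in control (SD, n = 3), and neither passed (adjusted p = 1.00 for both).

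Dnmt3a was almost wholly the long form, NM_007872, at 98.5% ± 0.725 in cKO and 97.4% ± 2.50 in control, and the short form NM_153743 was at 1.49% ± 0.728 and 2.61% ± 2.50. Use did not differ detectably (adjusted p = 0.618), so the rise in Dnmt3a was a rise of the long form. Uhrf1 use did not pass either (adjusted p = 0.322), with NM_010931 at 85.6% and 85.9%. Dnmt3b counts were divided differently in each library, with NM_001271747 at 0%, 0% and 91.4% in the 3 control libraries. NM_010068 was at 40.9%, 25.9% and 50.4% in the 3 cKO libraries and was listed at 0 in all 3 controls, a change that did not pass (adjusted p = 0.220), and neither did Dnmt3b as a whole (adjusted p = 0.109). With 1 library left out, the use of Uhrf1 passed without control replicate 1 and that of Dnmt3b without control replicate 3. The remaining 6 genes have 1 transcript each in the table.

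**Figure D4:**
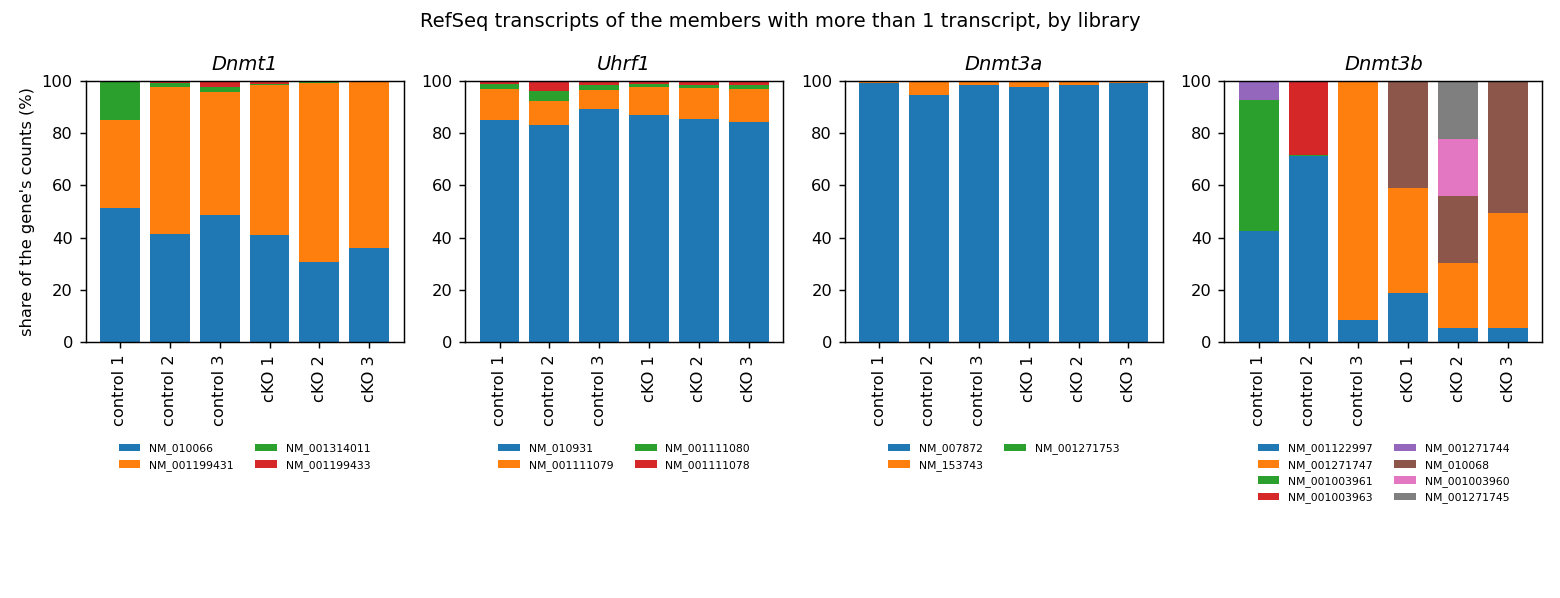
Stacked bars give the share of a gene's counts (vertical axis, 0 to 100%) that each RefSeq transcript took in each of the 6 libraries, for the 4 genes with more than 1 transcript. Dnmt3a is nearly all one form in every library, NM_001314011 of Dnmt1 stands out in control replicate 1 only, and Dnmt3b shares change from library to library.

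The wider pathway was taken from a list of 53 genes in 7 groups. Of the 51 tested, 15 rose, 15 fell and 21 did not pass, with a median log2 fold change of -0.002. The shares over all genes tested, 24.1% higher and 24.5% lower, stand beside these counts and those of each group below. Past 1.5-fold as well, 3 of the list rose and 6 fell, beside 10.4% and 10.6% of all genes tested. When the test was made against 1.5-fold, 3 of the list fell. Without control replicate 3, 5 rose past both limits. Cxxc4 and Dppa3 were at 0 in all libraries.

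The genes of base excision and active demethylation were the group with most decreases. Of 9 genes, 6 fell, 2 rose and Smug1 did not pass (-0.42, adjusted p = 0.174), with a median of -0.53. Over all genes tested, 24.5% fell and 24.1% rose. Mbd4, the glycosylase that removes thymine from G:T mismatches at CpG, was at 29.7, 24.8 and 31.1 CPM in cKO and at 64.8, 67.1 and 63.9 CPM in control libraries. It fell by 1.19 on the log2 scale (SE 0.0913, adjusted p = 5.55e-06), and its groups were far apart. Gadd45a and Gadd45b, stress-induced proteins linked to active demethylation, fell by 0.75 (adjusted p = 2.14e-05) and 0.64 (adjusted p = 0.000496), while their paralogue Gadd45g rose by 0.50 (adjusted p = 0.00423). Tdg, the glycosylase that excises the products of TET enzymes, fell by 0.44 (adjusted p = 0.0188), with 1 control library below the highest cKO library, and Xrcc1, a scaffold of the repair step, fell by 0.53 (adjusted p = 3.61e-05). Apex1, the endonuclease that cuts the abasic site, rose by 0.29 (adjusted p = 0.00537).

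The largest rise in CPM among the 51 tested genes was in a partner of the methyltransferases. Trim28, the corepressor that KRAB zinc finger proteins bring to silenced repeats, was at 721, 753 and 732 CPM in cKO and at 415, 398 and 413 CPM in control libraries. It rose by 0.85 (SE 0.0448, adjusted p = 9.85e-07), and the groups were far apart. Of the 8 partners tested, 2 rose and 2 fell. The other that rose was Usp7, the deubiquitinase that binds Dnmt1, by 0.25 (adjusted p = 0.00185). Those that fell were 2810417H13Rik, also known as Pclaf, whose ubiquitinated form recruits Dnmt1 to replicated DNA, at -0.20 (adjusted p = 0.0104) and the tRNA methyltransferase Trdmt1 at -0.52 (adjusted p = 0.0483).

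Histone enzymes linked to DNA methylation rose in 5 of 8 cases and fell in 2, with a median of 0.20. The shares over all genes tested were 24.1% and 24.5%. Hdac2, a histone deacetylase of the corepressor complexes, was at 123, 127 and 119.8 CPM in cKO and at 65.9, 66.7 and 68.2 CPM in control libraries. It rose by 0.88 (SE 0.0519, adjusted p = 1.67e-06), whereas Hdac1 rose by 0.28 (adjusted p = 0.00129). Setdb1, the H3K9 methyltransferase that Trim28 recruits, rose by 0.40 (adjusted p = 0.000125) and Ehmt2, another H3K9 methyltransferase, fell by 0.33 (adjusted p = 0.000202).

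In the list of methyl-CpG readers and proteins of their family, 2 of 7 rose, Mbd3 by 0.44 (adjusted p = 0.000152) and Zbtb33 by 0.29 (adjusted p = 0.0194), and 2 fell. Binding of these proteins to methylated CpG was not measured. Zbtb4, a zinc finger protein that binds methylated CpG, fell by 0.80 (adjusted p = 0.00224), from 22.9 ± 3.67 CPM to 13.1 ± 2.74 CPM (SD, n = 3). Of the 6 tested proteins that bind unmethylated CpG through a CXXC domain, the H3K36 demethylases Kdm2b and Kdm2a were those that passed, Kdm2b rising by 0.37 (adjusted p = 0.000207) and Kdm2a falling by 0.23 (adjusted p = 0.00825).

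The metabolites these enzymes use were followed through 2 short groups. In methyl donor metabolism, 2 of 6 genes rose and 1 fell. Mtr, the methionine synthase, rose by 0.48 (adjusted p = 0.000586). In 2-oxoglutarate metabolism, 1 of 7 rose and 1 fell. Idh2, a mitochondrial source of 2-oxoglutarate, fell by 0.34 (adjusted p = 0.00555).

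**Figure D5:**
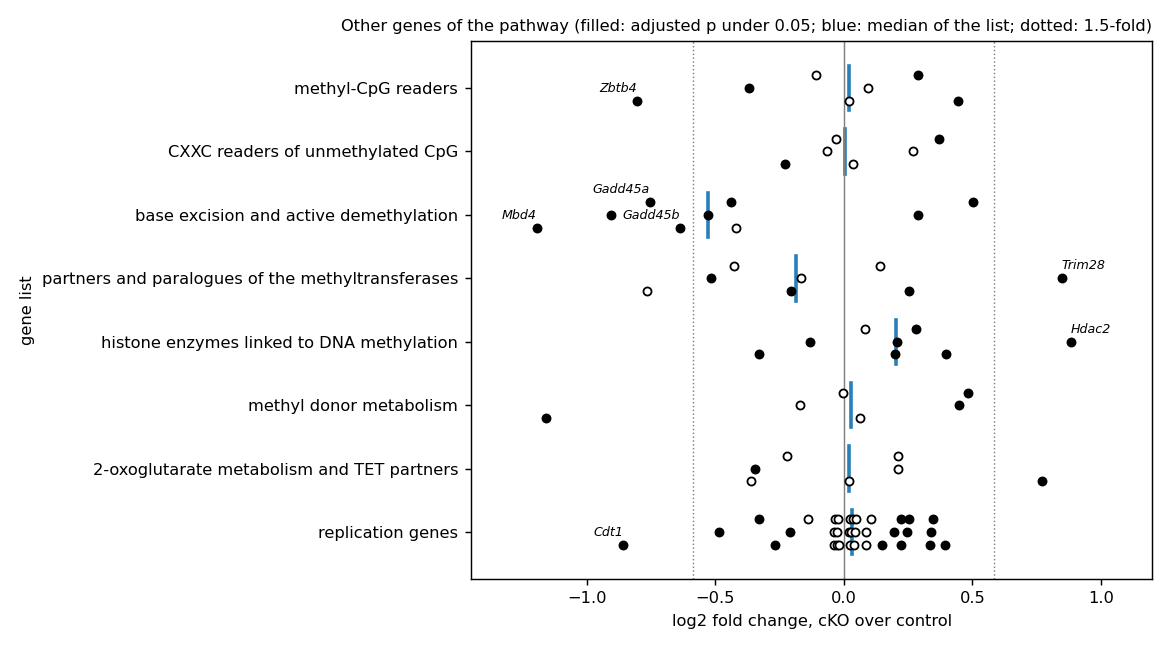
Each point is 1 gene's log2 fold change (horizontal axis, cKO over control) in the 7 pathway groups and the replication list, filled for an adjusted p under 0.05, with the median of each group in blue dotted lines at 1.5-fold and names for some genes past it. Base excision genes lie mostly below 0, histone enzymes mostly above, and replication genes between -0.48 (Rfc2) and 0.39 (Rfc4) apart from Cdt1.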

How the data were processed

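Poly(A) RNA of sorted YFP+ iGCBs was sequenced in 3 cKO and 3 control libraries, each from 1 mouse. The authors aligned reads to mm10 with HISAT2 and deposited the estimated counts of StringTie for genes and for RefSeq transcripts, exported with prepDE, which scales coverage by read length. Library totals were 39079582 to 45504570. These values, already whole, were analyzed in R 4.3.3 with edgeR 4.0.16: filterByExpr (minimum count 10) chose the genes, TMM scaled the libraries, and the groups were compared by the quasi-likelihood test without covariates, with Benjamini-Hochberg adjustment over the 13296 genes tested. CPM are TMM-scaled. Genes past both limits had an adjusted p under 0.05 and a change over 1.5-fold. Transcript use was tested with diffSpliceDGE for the 34674 of 36026 transcripts that matched a gene, with adjustment over all genes for gene calls and over all transcripts for single transcripts. Sex was read from Xist and Y chromosome gene counts. Positions are RefSeq gene spans on GRCm38.p6, and lengths are those of the matching GENCODE transcripts. DESeq2 1.42.0 was an alternative. The fits were tested on simulated data, where the test of transcript use made more false calls than its threshold allows and was kept after this was seen.

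The genes and lists were chosen with earlier results of these data known, so their counts are descriptions. Named genes were the 10 members, list genes past both limits (or the 2 with the smallest adjusted p in a group without any), the 3 largest changes each way among replication genes, Eif3e, and the 3 genes most like Tet1. Other pathway genes (Gadd45g, Tdg, Xrcc1, Apex1, Smug1, Usp7, 2810417H13Rik, Trdmt1, Hdac1, Setdb1, Ehmt2, Mbd3, Zbtb33, Mtr, Idh2) were named after their values were seen. Some list genes that this rule names are not reported here. The comparison of protein sequences was not run.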

Additional observations from a re-analysis of the deposited data

How the results depend on the processing

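Across size factors of DESeq2, totals alone, DESeq2, both filters, halved counts, a replicate block, a term for sex and each library left out, 6 or 7 of the 10 genes rose and 1, Tet2, fell. The 7th was Dnmt3b, which passed with the replicate block (0.38, adjusted p = 0.0390) and without cKO replicate 1. Past 1.5-fold, 3 genes rose, or 2 when the test was made against 1.5-fold. Of the genes that passed in each of these settings, Tet3 had the highest adjusted p, up to 0.0467 (without control replicate 1). The adjusted p of Dnmt3b ranged from 0.0240 to 0.210. The pathway count past both limits was 3 falling, in place of 6, with the test against 1.5-fold, and 3 to 5 rising with 1 library left out. Replication genes that rose numbered 6 to 10 with 1 library left out. Genes with changed transcript use numbered 0, in place of 1, with the replicate block and with the term for sex (edgeR; 2 at an unadjusted p under 0.05 in each). With 1 library left out the number was 0 to 2. It was 0 without any 1 of the cKO libraries, Uhrf1 alone without control replicate 1, and Dnmt1 with Dnmt3b without control replicate 3. The cause was not tested. The Dnmt1/Pcna difference ranged from -0.064 to 0.054 and changed sign without cKO replicate 1 or control replicate 2. The labels number the repeats without saying whether they pair, and the study used paired tests for other measures of this culture. Deviations of same-numbered libraries correlated at 0.00279, 0.110 and 0.196, and those of differently numbered libraries at -0.262 to 0.187. With so few libraries these values cannot decide whether the samples were paired. The block changed no other call among the 10 genes. With 3 mice a group, Dnmt3b and Tet1 rest on few counts, and the short isoforms on a division of shared reads by StringTie.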
